A study of Mus musculus with 12 samples.

Results

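Transcripts of 8 homeobox genes, Hoxa3, Hoxa5, Hoxa7, Hoxa9, Hoxa10, Meis1, Pbx2 and Pbx3, were followed across 3 progenitor populations of mouse bone marrow. The genes were taken by name, as the rows of the bulk expression table whose Ensembl ID carries one of these symbols, and are 8 of the 38924 gene IDs in the table. The populations came from female C57Bl/6J mice, an inbred laboratory strain, described as wild-type and given no treatment. Lymphoid-primed multipotent progenitors (LMPP) were sorted as lineage-negative cells with Sca1, cKit, CD34 and high Flk2, the receptor encoded by Flt3. Common lymphoid progenitors (CLP) were sorted as lineage-negative cells with IL7Ra, Flk2 and low Sca1 and cKit. Granulocyte-monocyte progenitors (GMP) were sorted as lineage-negative, Sca1-negative, cKit-positive cells with CD34 and the Fc gamma receptor. Each population had 4 libraries, 2 in each of 2 batches named in the sample titles. No label states that the 4 libraries of a population were drawn from different mice. The p-values therefore speak only to the spread among these libraries, and that spread may be technical. The age of the mice used for bulk sorting is not stated in the labels.

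HOX genes encode homeodomain transcription factors that stand in chromosomal clusters and are best known for patterning the body axis. In blood formation, genes of the HOXA cluster, above all Hoxa9 and Hoxa10, are transcribed in stem and multipotent progenitor cells and fall as cells mature. HOX proteins bind DNA together with cofactors of the TALE class of homeodomain proteins: PBX proteins pair with them on DNA, and MEIS proteins bind PBX and retain it in the nucleus. Hoxa9 and Meis1 together transform mouse marrow cells, and both are raised in human leukaemias with KMT2A rearrangement.

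A stretch of coding sequence from within the DNA-contacting recognition helix of the homeodomain is shown for each gene because it separates the HOX genes from their partners. The 24 bases were read from GENCODE vM21 transcripts (GRCm38), and the codon in capitals encodes a residue that differs between the HOXA, MEIS and PBX proteins. Other codons of the stretch differ between the classes as well.
Hoxa3: tggttcCAGaaccgccgcatgaag
Hoxa5: tggttcCAAaacaggaggatgaag
Hoxa7: tggttcCAGaatcggcgcatgaag
Hoxa9: tggttcCAGaaccgcaggatgaaa
Hoxa10: tggtttCAGaatcgcaggatgaaa
Meis1: tggtttATTaatgcccggagaaga
Pbx2: tggttcGGTaacaagcgaattcgc
Pbx3: tggtttGGCaacaaacgaatcagg
The codon was CAG in 4 of the 5 HOXA genes and CAA in Hoxa5, ATT in Meis1, GGT in Pbx2 and GGC in Pbx3. Any 2 HOXA genes shared 18 to 22 of the 24 bases, and a HOXA gene and a TALE gene shared 10 to 15. No run of 50 bases occurred in transcripts of more than 1 of the 8 genes.

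Some values carry limits set by overlapping annotation. In Hoxa3, 7.27% of the distinct 50-base runs also occurred in Gm28308, a gene model that spans the same stretch of the cluster. In Meis1, 9.04% occurred in Gm37818, which lies inside it. In Pbx2, 4.93% occurred in its neighbour Gpsm3, which stood at 14.97 to 31.02 TPM in these libraries. Hoxa3 (chr6:52169062-52213336) encloses Hoxa4, Hoxa5 and Hoxa6 on its own strand. The antisense transcript Hoxaas3 overlaps Hoxa3, Hoxa5 and Hoxa7 and was listed at 0.1 to 3.93 TPM. The sources used here do not state whether counting used the strand, so values of these genes are uncertain to the extent that reads were shared.

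The measured unit is TPM, a share of each library corrected for transcript length. It keeps no read totals, so the depth behind each value is unknown. Libraries summed to between 999999.45 and 1000000.54 TPM and listed 11064 to 12987 genes at 1 TPM or more. A difference is called where its limma p-value, adjusted over all 12718 tested genes by the Benjamini-Hochberg method, is under 0.05. Markers of granulocyte-monocyte progenitors, 7 genes including Elane and Mpo, had sums of 1081.99 to 1693.8 TPM in LMPP and 165.31 to 2085.18 TPM in CLP, against 20973.74 to 26229.93 TPM in GMP. In bulk libraries, fewer cells with a transcript and less of it per cell cannot be told apart. The CLP libraries stood apart by batch in genes outside the 8. Flt3, whose protein was in the CLP gate, was at 8.91 and 16.98 TPM in CLP of batch 2 and 138.28 and 146.13 TPM in CLP of batch 1. Transcripts of 7 B-lineage marker genes summed to 28.03 to 93.95 TPM in LMPP, to 4293.21 and 5476.3 TPM in CLP of batch 2 and to 852.82 and 31.43 TPM in CLP of batch 1, against 33.9 to 43.55 TPM in GMP. LMPP batch 2 replicate 1 and CLP batch 2 replicate 1 had the highest sums of erythroid markers, 28405.18 and 13545.47 TPM, where the other 10 libraries had 41.14 to 2461.37 TPM. The same libraries had the highest sums of mature neutrophil markers, 25922.79 and 11951.44 TPM, and no other library passed 1949.67 TPM. For the 8 genes, comparisons with CLP are therefore also given within each batch, and without the erythroid-rich pair where that changes a call. For other genes, within-batch values are given for part of those whose gap between batches was called. A pooled value given without them does not show that the batches agreed.

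Hoxa9 (chr6:52223100-52231089, minus strand), the HOXA gene most used as a marker of immature blood cells, had the highest mean level of the 5 HOXA genes in LMPP. It stood at 14.24 and 25.97 TPM in LMPP of batch 2 and 30.84 and 22.86 TPM in LMPP of batch 1. In CLP it stood at 3.13 and 2.29 TPM in batch 2 and 13.68 and 32.87 TPM in batch 1. In GMP it stood at 4.78 and 3.51 TPM in batch 2 and 4.42 and 3.28 TPM in batch 1. All LMPP libraries lay above all GMP libraries, whereas the CLP libraries split: those of batch 1 lay just below and just above the LMPP range and those of batch 2 lay below every GMP library. Hoxa9 was higher in LMPP than in GMP by 2.25 on the log2(TPM + 1) scale (SE 0.490, limma adjusted p = 0.00522). Against CLP the difference was 1.38 (SE 0.490, adjusted p = 0.0935), which was not called, and it was called without CLP batch 1 replicate 2 (1.91, adjusted p = 0.0113).

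Hoxa10 (chr6:52231197-52240854, minus strand), its neighbour on the side of the posterior genes, had the largest log2 differences between LMPP and the other populations among the HOXA genes. It stood at 5.42 and 5.46 TPM in LMPP of batch 2 and 9.78 and 5.13 TPM in LMPP of batch 1. CLP had 0.05 and 0 TPM in batch 2 and 1.36 and 4.02 TPM in batch 1, and GMP had 0.13 and 0.33 TPM in batch 2 and 0.29 and 0.43 TPM in batch 1. The lowest LMPP library lay above the highest library of either other population. The log2 difference was 1.95 in LMPP against CLP (SE 0.373, adjusted p = 0.00829) and 2.49 in LMPP against GMP (SE 0.373, adjusted p = 0.000594), both higher in LMPP in limma. Hoxa10 was tested only because of its level in LMPP, so these calls describe only. The call against CLP ended without both CLP libraries of batch 2 (1.19, adjusted p = 0.0730).

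Hoxa7 (chr6:52214491-52221854, minus strand), a gene of the central part of the cluster, differed least among the HOXA genes. LMPP had 13.45 and 17.48 TPM in batch 2 and 17.38 and 15.87 TPM in batch 1. CLP had 6.22 and 5.93 TPM in batch 2 and 17.62 and 18.89 TPM in batch 1, and GMP had 7.48 and 10.59 TPM in batch 2 and 8.52 and 6.94 TPM in batch 1. The CLP libraries of batch 1 were above every LMPP library and those of batch 2 were below every GMP library. Hoxa7 was higher in LMPP than in GMP by 0.87 (SE 0.299, adjusted p = 0.0464). That call sits at the threshold: it ended without any LMPP library and without any GMP library but GMP batch 2 replicate 2, with adjusted p between 0.0548 and 0.136 over these 7. Against CLP the difference was 0.54 (SE 0.299, adjusted p = 0.270).

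Hoxa5 (chr6:52201754-52204587, minus strand), best known for its role in lung and skeletal patterning, had 6.36 and 8.8 TPM in LMPP of batch 2 and 5.77 and 4.6 TPM in LMPP of batch 1. CLP had 1.16 and 0.43 TPM in batch 2 and 3.22 and 4.34 TPM in batch 1, and GMP had 1.83 and 0.84 TPM in batch 2 and 0.76 and 0.31 TPM in batch 1. The LMPP libraries did not overlap those of CLP or of GMP. Hoxa5 was higher in LMPP than in GMP by 1.96 (SE 0.406, adjusted p = 0.00401). Against CLP the difference was 1.32 (SE 0.406) with an adjusted p of 0.0588, which was not called, and without CLP batch 1 replicate 2 it was 1.63 (adjusted p = 0.0248).

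Hoxa3, the most anterior of the 5 HOXA genes, had the largest standard error of the 8 genes. LMPP had 2.52 and 13.52 TPM in batch 2 and 5.62 and 2.11 TPM in batch 1. CLP had 0.04 and 6.07 TPM in batch 2 and 3.06 and 3.77 TPM in batch 1, and GMP had 1.43 and 0.54 TPM in batch 2 and 0.81 and 0.39 TPM in batch 1. LMPP libraries lay above all GMP libraries, while LMPP and CLP overlapped. The difference in LMPP against GMP was 1.70 (SE 0.595, adjusted p = 0.0493), just inside the threshold. It was no longer called without LMPP batch 1 replicate 1, LMPP batch 2 replicate 3, either CLP library of batch 1 or any GMP library, with adjusted p between 0.0545 and 0.1496 over these 8. In LMPP against CLP it was 0.72 (SE 0.595, adjusted p = 0.463), and without CLP batch 2 replicate 1, where Hoxa3 was at 0.04 TPM, it was 0.057 (adjusted p = 0.953).

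Meis1 (chr11:18879817-19018985, minus strand), which encodes the cofactor that pairs with Hoxa9 in leukaemia models, had the highest level in LMPP of the 8 genes. It also had the largest differences between LMPP and the other populations on the log2(TPM + 1) scale. Against GMP that rank depended on the scale: over the alternatives run, the difference reached 4.06 for Hoxa10 and 3.22 for Meis1. Mean TPM in LMPP and GMP was 6.45 and 0.295 for Hoxa10, and 75.7 and 8.41 for Meis1. It stood at 74.14 and 111.53 TPM in LMPP of batch 2 and 63.86 and 53.14 TPM in LMPP of batch 1. CLP had 6.18 and 3.72 TPM in batch 2 and 16.95 and 28.3 TPM in batch 1, and GMP had 11.5 and 8.88 TPM in batch 2 and 7.03 and 6.21 TPM in batch 1. Every LMPP library lay above every CLP and GMP library. Meis1 was higher in LMPP by 2.68 against CLP (SE 0.474, adjusted p = 0.00549) and by 3.01 against GMP (SE 0.474, adjusted p = 0.000798). Against GMP this is an 8.03-fold difference in TPM + 1. The call against CLP ended in a limma fit with a term for each batch and replicate number (adjusted p = 0.0691).

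Pbx2 (chr17:34591266-34597400, plus strand), a broadly transcribed PBX gene, varied less between populations than the HOXA genes and Meis1. LMPP had 10.5 and 20.89 TPM in batch 2 and 21.99 and 20.9 TPM in batch 1. CLP had 15.21 and 10.56 TPM in batch 2 and 14.35 and 16.48 TPM in batch 1, and GMP had 8.53 and 12.05 TPM in batch 2 and 13.51 and 13.1 TPM in batch 1. The low LMPP library, batch 2 replicate 1, was also the library richest in erythroid and neutrophil transcripts, and the part of these in its Pbx2 value was not tested. Pbx2 was not called in any comparison: the difference was 0.33 in LMPP against CLP (95% interval -0.13 to 0.80) and 0.58 in LMPP against GMP (0.12 to 1.04, adjusted p = 0.0597). Without LMPP batch 2 replicate 1 the difference from GMP was 0.78 and called (adjusted p = 0.0124), and it was also called without CLP batch 2 replicate 2 (0.58, adjusted p = 0.0471).

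Pbx3 (chr2:34171457-34373142, minus strand), the PBX gene most often tied to HOXA9 in human leukaemia, was the lowest of the partner genes. LMPP had 3.26 and 3.88 TPM in batch 2 and 3.19 and 2.8 TPM in batch 1. CLP had 1.85 and 2.72 TPM in batch 2 and 1.47 and 2.56 TPM in batch 1, and GMP had 4 and 3.11 TPM in batch 2 and 1.05 and 1.45 TPM in batch 1. LMPP and CLP did not overlap, although the difference of 0.46 was not called (95% interval -0.10 to 1.01, adjusted p = 0.275). GMP libraries of batch 2 lay in or above the LMPP range and those of batch 1 lay below every LMPP and CLP library. The difference in LMPP against GMP was 0.42 (-0.14 to 0.98, adjusted p = 0.237), and its sign turned under quantile normalization (-0.10).

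**Figure D1:**
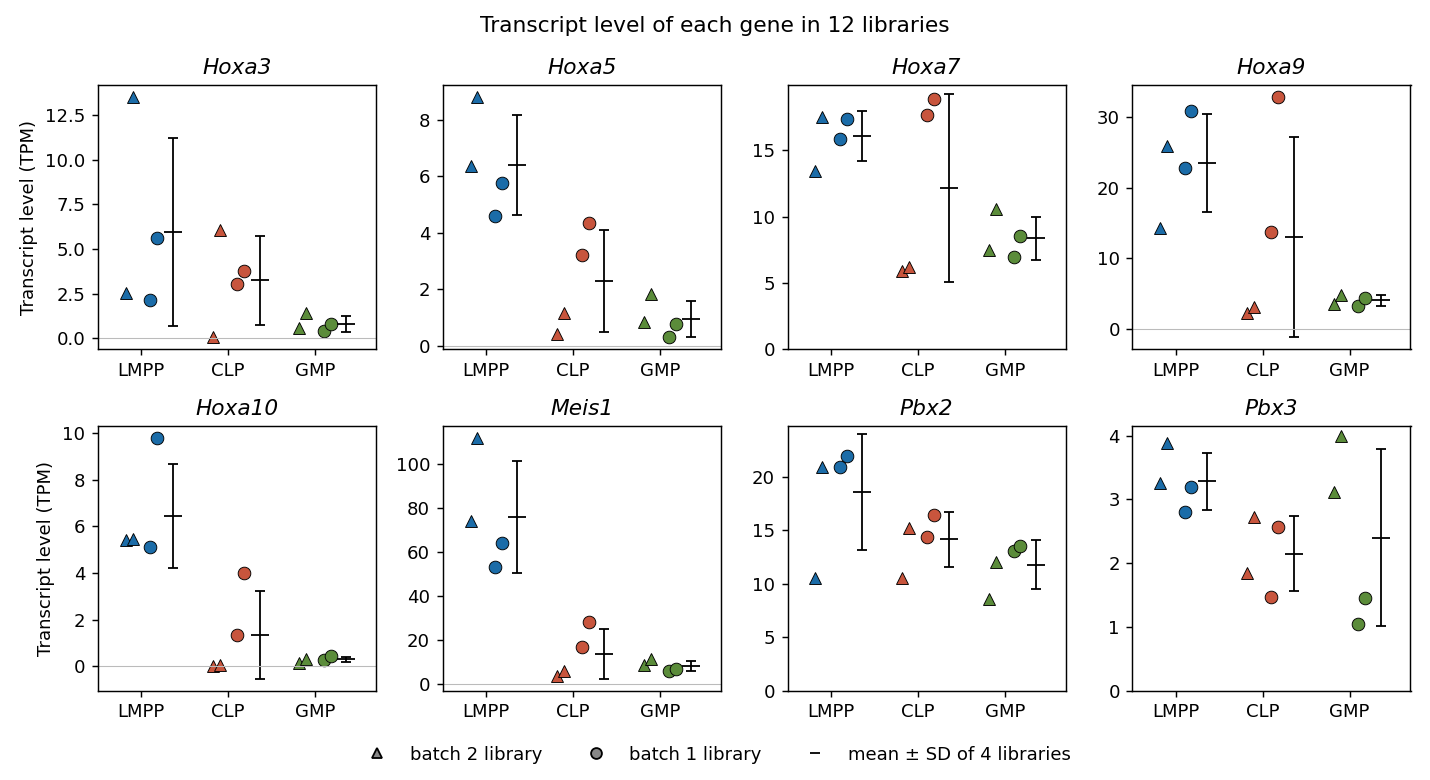
Transcript level in TPM of each of the 8 genes (panels, each with its own linear axis) in LMPP, CLP and GMP. Triangles are libraries of batch 2, circles libraries of batch 1, and the black dash with bar is the mean ± SD of the 4 libraries. The CLP libraries of batch 2 sit near the GMP libraries for Hoxa5, Hoxa7, Hoxa9, Hoxa10 and Meis1, and those of batch 1 sit higher.

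LMPP against GMP gave the clearest separation. All 5 HOXA genes and Meis1 were higher in LMPP, with log2 differences from 0.87 for Hoxa7 to 3.01 for Meis1, and Pbx2 and Pbx3 were not called. Thus 6 of 8 genes were called higher and 0 lower in limma, where 21.3% of the 12718 tested genes were called higher and 7.62% lower. The direction of these 6 was the same under median-ratio scaling, quantile normalization and rescaling without mitochondrial and ribosomal RNA, but Hoxa3 and Hoxa7 lost their calls under median-ratio scaling and quantile normalization. The median difference of the 8 genes was 1.83, beside 0.24 over all tested genes. After median-ratio scaling that all-gene median was 0.02, and in LMPP against CLP it was 0.02 after scaling and 0.17 without. All 8 genes passed the filter of 1 TPM in 4 libraries. Hoxa3 and Hoxa5 reached 1 TPM in 8 libraries and Hoxa10 in 6, so these could have passed on LMPP alone and their medians and counts describe only. Hoxa10 would not have passed without the LMPP libraries, since outside LMPP it reached 1 TPM in CLP of batch 1 alone.

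LMPP against CLP separated fewer of the genes. Meis1 and Hoxa10 were higher in LMPP, and the other 6 were not called. That is 2 of 8 genes called higher and 0 lower, or 4 and 0 at an unadjusted p under 0.05, where 7.23% of tested genes were called higher and 2.8% lower. Hoxa10 passed the filter only with its LMPP libraries, so its part in these counts describes only. The median difference of the 8 genes was 1.02, beside 0.17 over all genes.

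CLP against GMP called none of the 8 genes higher and none lower in limma, also at an unadjusted p under 0.05, where 13.9% of tested genes were called higher and 9.96% lower. The differences ran from -0.04 for Pbx3 (95% interval -0.59 to 0.52) to 0.98 for Hoxa3 (-0.31 to 2.27), with a median of 0.44 beside 0.09 over all genes. Without CLP batch 2 replicate 1 the Hoxa3 difference was 1.64 and called (adjusted p = 0.0211), as it was without the erythroid-rich pair (1.69, adjusted p = 0.00899). These comparisons share libraries, so their values are set side by side and not counted as independent.

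**Figure D2:**
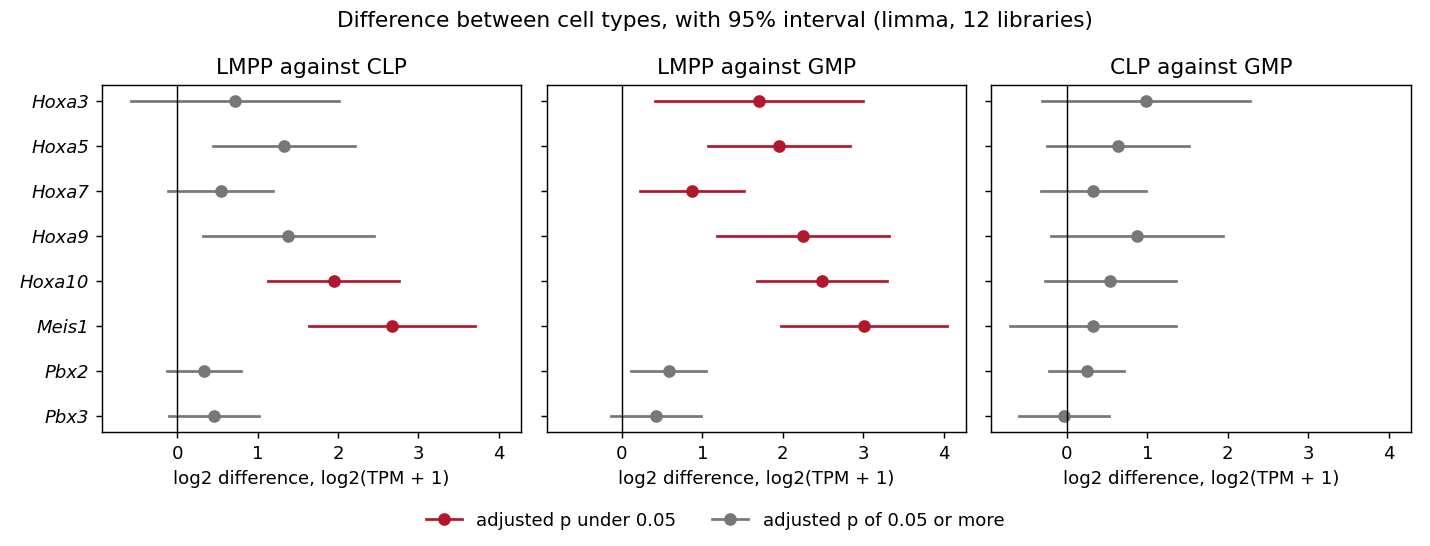
Log2 difference in TPM + 1 (horizontal axis) of the 8 genes in LMPP against CLP, LMPP against GMP and CLP against GMP, with 95% intervals from the limma fit to 12 libraries. Red marks an adjusted p under 0.05. Meis1 and Hoxa10 are red in the first panel, Meis1 and the 5 HOXA genes in the second, and no gene in the third.

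Hoxa5, Hoxa7, Hoxa9, Hoxa10 and Meis1 were lower in CLP of batch 2 than in CLP of batch 1, and Hoxa3, Pbx2 and Pbx3 were not called. Hoxa9 averaged 2.71 TPM in batch 2 and 23.3 TPM in batch 1, a difference of -2.60 (SE 0.410, limma adjusted p = 0.00122). Meis1 averaged 4.95 TPM in batch 2 and 22.6 TPM in batch 1, a difference of -1.98 (SE 0.307, adjusted p = 0.00110). Hoxa10 (-1.75, adjusted p = 0.00911), Hoxa7 (-1.44, adjusted p = 0.00133) and Hoxa5 (-1.43, adjusted p = 0.0124) were lower as well. Hoxa3 (-0.70, adjusted p = 0.568) overlapped between the batches, and the values for Pbx2 and Pbx3 were -0.26 and 0.14. In all, 5 of 8 genes were called lower and 0 higher in CLP of batch 2, where 10.7% of tested genes were called lower and 21.3% higher. None of the 8 was called between batches within LMPP or within GMP. At an unadjusted p under 0.05, Pbx3 alone would be, in GMP (1.02, adjusted p = 0.0742). The shares of all tested genes called between batches within LMPP and within GMP are not given here. The absence of calls there therefore describes only, and does not show that a shift between batches was particular to CLP.

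Comparisons with CLP therefore differed by batch. Meis1 was higher in LMPP than in CLP by 3.98 within batch 2 (adjusted p = 0.000125) and by 1.37 within batch 1 (adjusted p = 0.0312), and these differed by 2.61 (SE 0.434, adjusted p = 0.00969 over all tested genes). For Hoxa9 the values were 2.46 and 0.31 in batch 2 and batch 1, a gap of 2.15 (adjusted p = 0.0482). For Hoxa5 they were 2.27 and 0.38, a gap of 1.90 (adjusted p = 0.0462). For Hoxa7 they were 1.21 and -0.13, a gap of 1.34 (adjusted p = 0.0349), so that the sign itself depended on the batch. Hoxa10 was higher in LMPP by 2.65 within batch 2 (adjusted p = 0.00234) and by 1.24 within batch 1, which was not called (adjusted p = 0.103), and the gap of 1.41 was not called (adjusted p = 0.156). Within batch 2 and batch 1, Hoxa3 had differences of 1.40 and 0.04, Pbx2 of 0.21 and 0.45, and Pbx3 of 0.49 and 0.43, none of them called. In all, 5 of 8 genes were called higher in LMPP within batch 2, where 13.1% of tested genes were, and 1 of 8 within batch 1, where 4.84% were. Thus 4 of 8 genes had a called gap in LMPP against CLP, where 8.58% of all tested genes did.

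Against GMP the CLP values turned round. Within batch 1, 5 genes were higher in CLP than in GMP: Hoxa9 (2.21), Hoxa5 (1.64), Meis1 (1.59), Hoxa10 (1.34) and Hoxa7 (1.15), with adjusted p between 0.00530 and 0.0486, where 9.98% of tested genes were called higher within batch 1. Within batch 2 the same genes had differences of -0.47, -0.38, -0.93, -0.26 and -0.49, and of these Meis1 was called lower in CLP (adjusted p = 0.0485), where 11.5% of tested genes were. The values of Hoxa3, Pbx2 and Pbx3 were 0.49, 0.30 and -0.48 within batch 2 and 1.47, 0.20 and 0.40 within batch 1, none of them called. The gap between batches was called for 4 of the 8 genes: Hoxa9 (-2.68, adjusted p = 0.0290), Meis1 (-2.52, 0.0110), Hoxa5 (-2.02, 0.0477) and Hoxa7 (-1.63, 0.0218), where 5.48% of tested genes had one. In LMPP against GMP none of the 8 genes had a called gap, where 0.0157% of tested genes did. The widest there was that of Pbx3, with differences of 0.008 within batch 2 and 0.83 within batch 1 (gap -0.82, unadjusted p = 0.0877), followed by Hoxa9, with 1.99 and 2.52. With both CLP libraries of batch 2 left out, LMPP against CLP called 1 gene higher, Meis1, where 5.28% of the 12406 genes then tested were called higher. CLP against GMP called 5 higher, where 14.5% of these genes were.

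**Figure D3:**
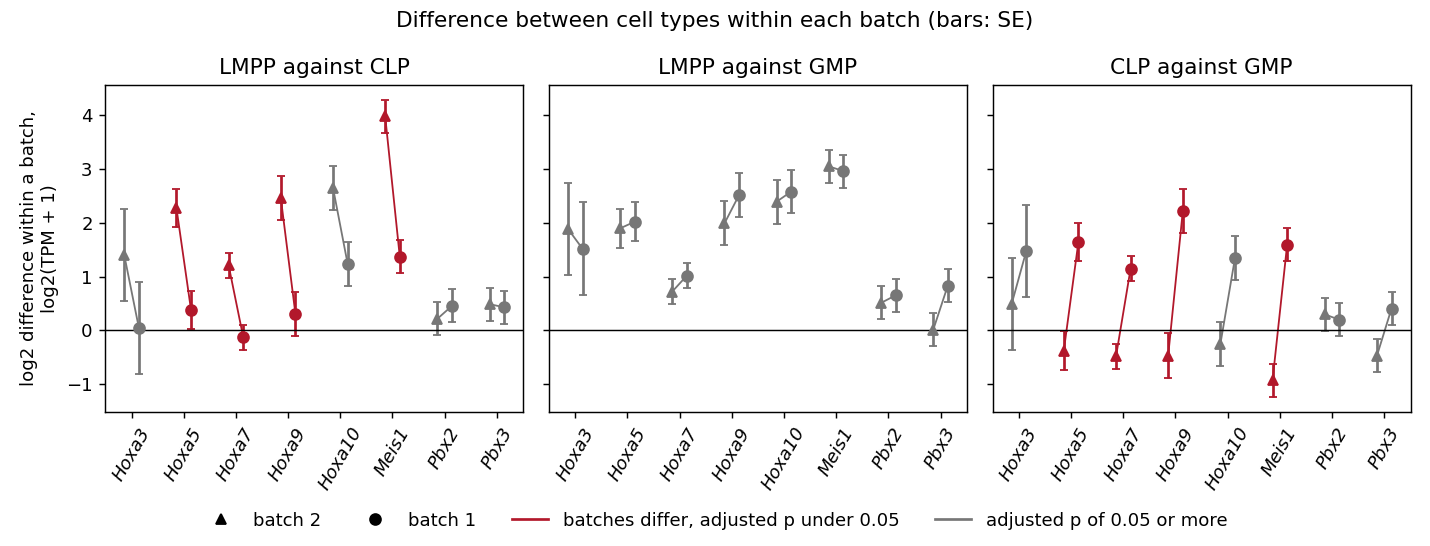
Log2 difference in TPM + 1 (vertical axis) of each gene within batch 2 (triangles) and within batch 1 (circles), with SE bars, for LMPP against CLP, LMPP against GMP and CLP against GMP. Red marks genes whose 2 values differed at an adjusted p under 0.05. The lines are steep for Hoxa5, Hoxa7, Hoxa9 and Meis1 in both panels that involve CLP and less steep for them in LMPP against GMP.

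Markers moved with this split. Cd34 had 16.96 and 14.85 TPM in the CLP libraries of batch 2, against 111.33 and 163.76 TPM in those of batch 1, so that Cd34 and Flt3 were low in the libraries that were low in Hoxa9 and Meis1. Of the 7 tested genes of the gate list, these 2 were called lower in CLP of batch 2 than in CLP of batch 1. Over all tested genes, 10.7% were called lower and 21.3% higher. Kit, the gate gene for cKit, was called higher (0.97, adjusted p = 0.0181), with 27.61 and 46.71 TPM in CLP of batch 2, against 15.26 and 20.91 TPM in CLP of batch 1. The B-lineage markers were all higher in CLP of batch 2, 7 of 7 in limma, as were 8 of 8 mature neutrophil markers and 5 of 7 tested erythroid markers. Pax5, the factor that fixes B cell identity, had 158.32 and 167.54 TPM in CLP of batch 2, against 35.6 and 0.81 TPM in CLP of batch 1. CLP batch 1 replicate 2, which had the lowest Pax5 of the 4 CLP libraries, also had the highest Hoxa9, Hoxa7, Hoxa5, Hoxa10, Meis1 and Pbx2 of them. Hoxa3 and Pbx3 went the other way. They were highest in CLP batch 2 replicate 2 (6.07 and 2.72 TPM), which had the highest Pax5. Of the 7 B-lineage markers, 7 were lower in LMPP than in CLP and 7 were higher in CLP than in GMP in limma. Of all tested genes, 2.8% and 13.9% were. The part of the B-lineage markers in the HOXA and Meis1 differences was not tested. Il7r, also a gate gene, had 76.64 and 129.77 TPM in CLP of batch 2, against 86.49 and 82.3 TPM in CLP of batch 1, a range that overlaps between batches.

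The 5 HOXA genes made up most of the HOX transcripts in every library. Of 38 HOX genes in the table, 18 were listed at 0 in all 12 libraries, and the HOXA cluster supplied between 90.58% and 98.93% of the summed HOX TPM. Hoxa9 and Hoxa7 together supplied 51.97% to 80.02%. The 5 genes summed to 41.99 and 71.23 TPM in LMPP of batch 2 and 69.39 and 50.57 TPM in LMPP of batch 1. In CLP the sums were 10.6 and 14.72 TPM in batch 2 and 38.94 and 63.89 TPM in batch 1, and in GMP they were 15.65 and 15.81 TPM in batch 2 and 14.8 and 11.35 TPM in batch 1. Over the other HOX genes, 3 passed the filter: Hoxa2, Hoxa6 and Hoxb4. They reached 1 TPM in 5, 6 and 6 libraries, every LMPP library among these and no GMP library. All 3 could have passed on LMPP alone, so their differences from GMP describe only. Hoxa6 averaged 2.36 ± 0.569 TPM in the LMPP libraries, 1.75 ± 1.91 TPM in the CLP libraries and 0.41 ± 0.256 TPM in the GMP libraries (SD, n = 4), and was higher in LMPP than in GMP by 1.25 (adjusted p = 0.0381). Hoxa2 averaged 1.74 ± 1.18, 0.565 ± 0.631 and 0.07 ± 0.0658 TPM in the same populations and was higher in LMPP than in GMP by 1.28 (adjusted p = 0.0160). Hoxb4, a HOX gene used to expand mouse stem cells, averaged 2.15 ± 0.590 TPM in the LMPP libraries, 0.845 ± 0.621 TPM in the CLP libraries and 0.813 ± 0.113 TPM in the GMP libraries. None of the 3 was called in LMPP against CLP over both batches, where 2 had an unadjusted p under 0.05, or in CLP against GMP, where 0 did. Within batch 2 all 3 were called higher in LMPP than in CLP, where 13.1% of tested genes were: Hoxa2 (1.58), Hoxa6 (1.495) and Hoxb4 (1.28). Within batch 1 the values were 0.06, -0.33 and 0.35, none called, and no gap between batches was called. These differences also describe only. In CLP against GMP the difference of Hoxa6 was -0.38 within batch 2 and 1.72 within batch 1 (gap adjusted p = 0.0424). Hoxa11 and Hoxa13, at the posterior end, were listed at 0 throughout.

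**Figure D4:**
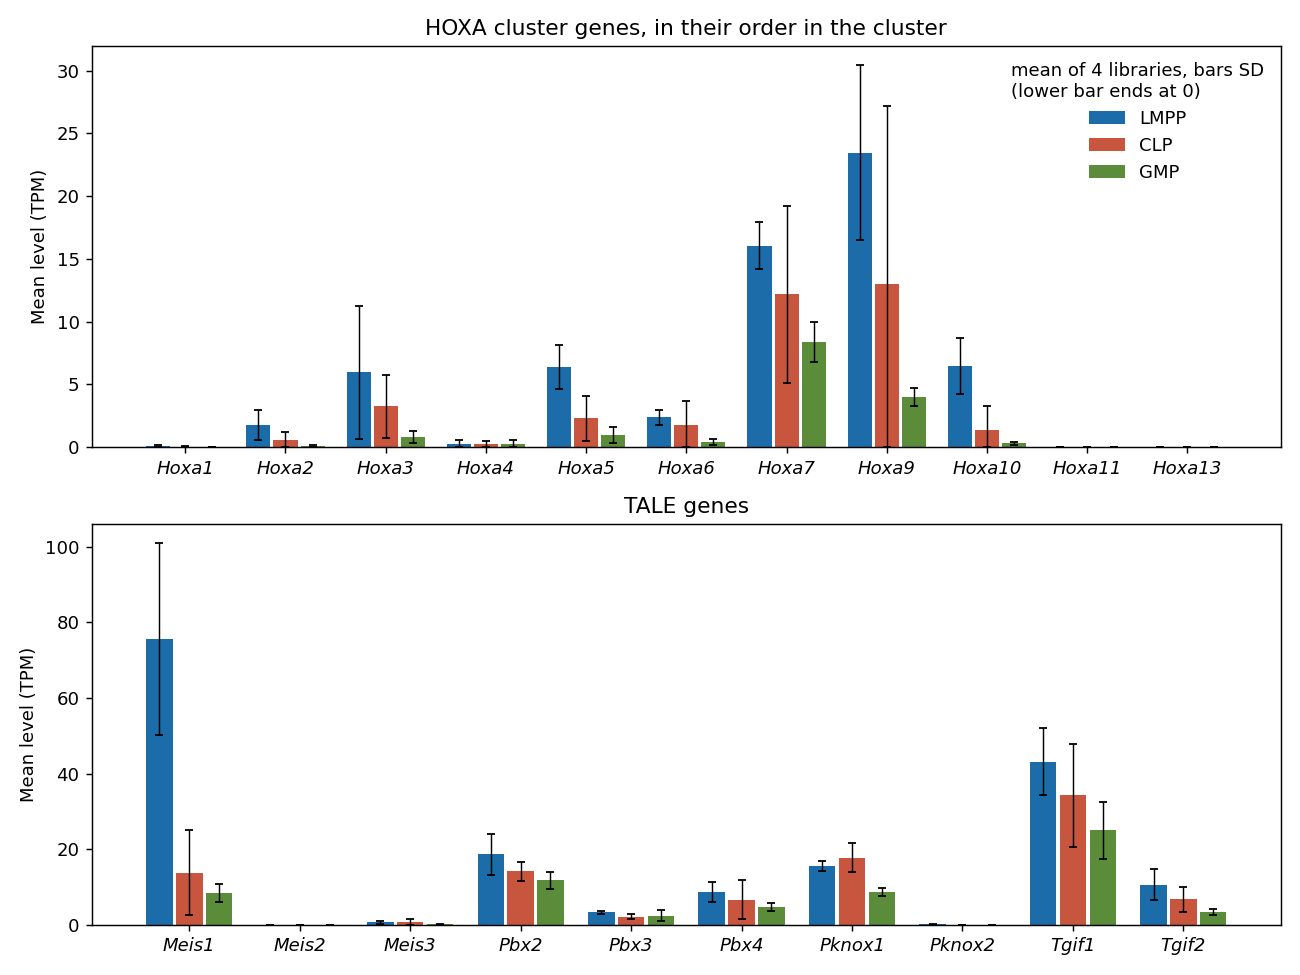
Mean level in TPM of the HOXA cluster genes in their order in the cluster (top) and of TALE genes (bottom) in LMPP, CLP and GMP, with SD over 4 libraries; lower bars end at 0. In LMPP the tallest HOXA bars are those of Hoxa9 and Hoxa7, and Meis1 is the tallest TALE bar.

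Among the listed other TALE genes and PBX interactors, each difference called between populations over both batches was higher in LMPP or in CLP than in GMP. Pbx4 averaged 8.63 ± 2.69, 6.56 ± 5.14 and 4.62 ± 1.11 TPM in LMPP, CLP and GMP. Of 11 genes in this list, 5 were tested. In LMPP against CLP, limma called 0 of these, and 0 had an unadjusted p under 0.05. In LMPP against GMP, 4 were higher and 0 were lower: Tgif2 (1.34) and Tgif1 (0.79), which encode TALE repressors, Pbxip1 (1.11), which encodes a PBX-binding protein, and Pknox1 (0.78), a MEIS-related gene. The shares of all tested genes were 21.3% higher and 7.62% lower. In CLP against GMP, Pbxip1 (1.33) and Pknox1 (0.95) were higher in CLP and none was lower, where 13.9% of tested genes were called higher. Between the CLP batches, limma called 1 of the 5 lower in batch 2 and 1 higher. Pbx4 averaged 2.395 TPM in CLP of batch 2 and 10.72 TPM in CLP of batch 1 (-1.76, adjusted p = 0.00206). Tgif1 was higher in batch 2 (0.83, adjusted p = 0.036). Of all tested genes, 10.7% were called lower and 21.3% higher between these batches. In LMPP against CLP, limma called Pbx4 higher in LMPP within batch 2 (1.155, adjusted p = 0.0243), where 13.1% of tested genes were. Within batch 1 its difference was -0.008. Pknox1 averaged 15.5 ± 1.28 TPM in the LMPP libraries, 17.8 ± 3.92 TPM in the CLP libraries and 8.64 ± 1.15 TPM in the GMP libraries, and Tgif1 averaged 43.2 ± 8.91, 34.2 ± 13.7 and 24.9 ± 7.58 TPM. Meis2 was listed at 0 in every library.

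A list of chromatin regulators that act on the HOXA cluster, with 3 CDX transcription factor genes, was also followed, and 20 of 23 passed the filter. The 3 that did not pass were Cdx1, Cdx2 and Cdx4, listed at 0 in every library. None was called in LMPP against CLP (2 higher and 2 lower at an unadjusted p under 0.05). The gap between batches was called there for Ezh2, Suz12, Psip1 and Eed, where 8.58% of tested genes had one. Ezh2 differed by -1.52 within batch 2 and 0.27 within batch 1 (limma gap adjusted p = 0.00599). The values were -0.79 and 0.50 for Suz12 (0.0127), -0.36 and 0.825 for Psip1 (0.0174) and -0.29 and 0.60 for Eed (0.0495). Ezh2 and Suz12 were called lower in LMPP within batch 2, and Psip1 higher within batch 1. In LMPP against GMP, 8 were higher and 1 lower, with a median difference of 0.43 beside 0.24 over all genes. The shares of all tested genes were 21.3% higher and 7.62% lower. Kmt2a, the methyltransferase that maintains HOX transcription, was higher by 1.08 (SE 0.227, adjusted p = 0.00430). Cbx7, a reader of Polycomb-marked chromatin, was higher by 1.32 and Mllt3, a partner of KMT2A fusions, by 1.08, while Aff1 was lower (-0.84). In CLP against GMP, where 13.9% of tested genes were called higher, 5 were: Ezh2 (1.16), the Polycomb methyltransferase, Mllt3 (0.998), Kmt2a (0.99), Asxl1 (0.80) and Kat6a (0.78). The difference of Mllt3 was 1.91 within batch 2 and 0.08 within batch 1, where it was not called (adjusted p = 0.875, gap adjusted p = 0.0246). That of Ezh2 was 1.81 within batch 2 and 0.51 within batch 1, where it was not called (adjusted p = 0.0869, gap adjusted p = 0.0224). Between the CLP batches, 9 of the 20 were called higher in batch 2 and 0 lower, with a median of 0.64 beside 0.13 over all tested genes. Of all tested genes, 21.3% were called higher in batch 2 and 10.7% lower.

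Genes reported as targets of HOXA9 or MEIS1 in mouse blood cells moved in both directions, with 17 of 18 tested. In LMPP against CLP, 4 were higher, Cd34 (2.72), Lmo2 (2.72), Dach1 (1.58) and Etv6 (0.77), and 1 was lower, Il7r (-3.41). Over all tested genes, 7.23% were called higher and 2.8% lower there. In LMPP against GMP, 9 were higher, led by Flt3 (4.88), Il7r (2.86) and Camk2d (2.03), and 1 was lower, Myb (-0.50), with a median of 1.09 beside 0.24 over all genes. The shares of all tested genes were 21.3% higher and 7.62% lower. In CLP against GMP, 7 were higher, led by Il7r (6.27), Flt3 (3.39) and Camk2d (2.60), and 4 were lower, Dach1 (-1.91), Lmo2 (-1.30), Cdk6 (-0.48) and Myb (-0.42). Here 13.9% of all tested genes were called higher and 9.96% lower. Flt3, Il7r and Cd34 encode proteins used in the sort. Flk2 was in the LMPP and CLP gates, IL7Ra in the CLP gate alone, and CD34 in the LMPP and GMP gates. Where the gates of 2 populations differed in a protein, the difference of its gene is part of how they were defined. For Cd34 in LMPP against CLP the difference was 4.00 within batch 2 and 1.44 within batch 1 (gap adjusted p = 0.00204). In the same comparison Flt3 had 3.39 within batch 2 and -0.42 within batch 1 (limma gap adjusted p = 0.00153). Bcl2 had 1.88 and -0.04 (0.00457), and Erg had -1.16 and 0.10 (0.0130). For Flt3 in CLP against GMP it was 1.66 within batch 2 and 5.12 within batch 1 (gap adjusted p = 0.000913). Between the CLP batches the targets ran both ways: 5 of 17 were called higher in batch 2, Erg (1.62), Camk2d (1.47), Trib2 (1.43), Hif1a (1.21) and Syk (0.94), and 4 lower, Flt3 (-3.42), Cd34 (-3.01), Bcl2 (-2.25) and Sox4 (-1.80). Of all tested genes, 21.3% were called higher in batch 2 and 10.7% lower. Lmo2, a bridging factor of stem and progenitor cells, averaged 329 TPM in the LMPP libraries, 51.5 TPM in the CLP libraries and 125 TPM in the GMP libraries.

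The 8 genes were also set beside each other by profile, as the root mean square difference of their centred log2(TPM + 1) values over the 12 libraries. The closest pair was Hoxa9 with Hoxa10 (0.426), followed by Hoxa7 with Pbx2 (0.440), and the farthest was Meis1 with Pbx3 (1.329). The values were not scaled, so genes that vary little can score as close without sharing a pattern. Between the CLP batches, Hoxa7 differed by -1.44, which was called, and Pbx2 by -0.26, which was not. Among 9650 other genes with at least 5 TPM on average in a population, the profiles closest to Hoxa9 were those of Cd27 (0.354), Slc16a11 (0.373), Ociad2 (0.390), Sorbs3 (0.401) and Gm12216 (0.434). Those closest to Meis1 were Gcnt2 (0.360), Ccl4 (0.373), P2ry14 (0.419), Ccser1 (0.442) and Oasl2 (0.443). All profiles come from the same 12 libraries and share their scaling. Cd27, a surface receptor of the tumour necrosis factor receptor family, averaged 203 TPM in the LMPP libraries, 91.9 TPM in the CLP libraries and 52.0 TPM in the GMP libraries. Gcnt2, a glycosyltransferase gene, averaged 89.7 TPM in the LMPP libraries, 11.1 TPM in the CLP libraries and 6.38 TPM in the GMP libraries.

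Start-site sequences are shown for the 3 genes with the largest differences in LMPP against GMP, Meis1, Hoxa10 and Hoxa9, and for Hoxa3, which held the only match to a MEIS motif. They are the 250 bases before each RefSeq start (GRCm38.p6), 5' to 3' on the gene's strand. Hoxa10 has 2 such starts: the first window shown lies inside the annotated gene and the second borders its outer end. The Hoxa9 and Hoxa3 windows also lie inside their annotated genes, and the Meis1 window overlaps the outer end of Meis1. Capitals mark motif matches.
Meis1 (chr11:19018970-19019219, minus strand): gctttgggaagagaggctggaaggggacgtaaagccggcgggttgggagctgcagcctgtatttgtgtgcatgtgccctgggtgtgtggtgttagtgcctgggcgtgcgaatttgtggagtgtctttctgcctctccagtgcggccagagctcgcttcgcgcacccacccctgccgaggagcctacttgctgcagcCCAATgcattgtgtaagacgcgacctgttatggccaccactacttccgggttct
Hoxa10 (chr6:52234940-52235189, minus strand): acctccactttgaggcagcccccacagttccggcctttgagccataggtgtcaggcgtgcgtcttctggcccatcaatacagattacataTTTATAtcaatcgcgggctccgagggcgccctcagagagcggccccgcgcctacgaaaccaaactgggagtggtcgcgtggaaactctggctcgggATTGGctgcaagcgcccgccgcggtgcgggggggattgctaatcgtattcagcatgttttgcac
Hoxa10 (chr6:52240855-52241104, minus strand): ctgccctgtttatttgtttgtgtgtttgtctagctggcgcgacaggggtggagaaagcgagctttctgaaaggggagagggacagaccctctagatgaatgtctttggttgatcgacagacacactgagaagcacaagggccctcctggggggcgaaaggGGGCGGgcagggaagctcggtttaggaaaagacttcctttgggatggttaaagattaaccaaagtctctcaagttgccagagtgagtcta
Hoxa9 (chr6:52227371-52227620, minus strand): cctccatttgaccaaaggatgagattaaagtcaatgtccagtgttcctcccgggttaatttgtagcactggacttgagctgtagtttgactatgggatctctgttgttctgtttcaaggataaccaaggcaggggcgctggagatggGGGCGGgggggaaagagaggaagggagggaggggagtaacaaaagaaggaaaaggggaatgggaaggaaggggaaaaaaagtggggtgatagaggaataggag
Hoxa3 (chr6:52213068-52213317, minus strand): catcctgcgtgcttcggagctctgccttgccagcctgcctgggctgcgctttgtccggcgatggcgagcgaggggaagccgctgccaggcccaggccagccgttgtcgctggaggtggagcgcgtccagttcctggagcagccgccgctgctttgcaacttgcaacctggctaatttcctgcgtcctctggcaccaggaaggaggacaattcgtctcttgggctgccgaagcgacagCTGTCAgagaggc
The PBX-HOX motif TGATNNAT, searched on both strands, occurred in 0 of the 8 windows of 7 members, where 7.7% of 32817 promoter windows of this length held it. The MEIS motif TGACAG occurred in Hoxa3 alone, as CTGTCA with its first base 13 bases before the start, where 15.9% of windows held it. The capitals in Meis1 are a CCAAT letter match 54 bases before the start, found in 33.8% of windows. Those in the first Hoxa10 window are TTTATA, the reverse complement of TATAAA (12.4% of windows), and ATTGG, the reverse complement of CCAAT. Those in the second Hoxa10 window and in Hoxa9 are GGGCGG (32.7% of windows). The motifs do not overlap in these windows, and a match of letters does not show that a factor binds there.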

How the data were processed

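Bulk RNA-seq of 12 libraries was used, 4 each of LMPP, CLP and GMP, 2 per batch. The deposited values are TPM per Ensembl gene. The submitters' processing notes name Bowtie2 2.2.0, RSEM 1.2.12, edgeR 3.10.0 and mm10, with no role or order. Another 17 columns of the table match none of these samples by name and were not used. Symbols and coordinates came from GENCODE vM21 by Ensembl ID (37607 matched), and promoter windows from RefSeq (GRCm38.p6, 7 of 8 members).

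Tested genes reached 1 TPM in 4 or more libraries (12718) and were fitted as log2(TPM + 1) with limma 3.58.1 in R 4.3.3, with population and an additive batch term (8 residual degrees of freedom) and a trended prior. Fold changes on this scale understate changes of low genes. Within-batch values and their gaps came from a fit of population by batch (6 degrees). P-values are two-sided, adjusted by Benjamini-Hochberg over all tested genes per contrast, and called under 0.05. The fit was tested on simulated data. Leaving out libraries, scalings, filters, pseudocounts and designs were the alternatives. The members and the 12 gene lists were chosen with earlier results of these data known. Named beyond the 8 members were other HOX and TALE genes averaging 1 TPM or more, up to 3 called genes per list with the largest change, and the 5 closest profiles. Cd34, Pax5, genes named to complete small counts, and the core promoter motifs were chosen after their values were seen. Some items that fall under this rule are not reported here.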

Additional observations from a re-analysis of the deposited data

Results flagged for a closer look

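Over the 24 sets of 4 libraries examined (8 genes in 3 populations), 2 held a library far from the others; by chance alone about 1 in 20 sets would. Hoxa10 in LMPP batch 1 replicate 1 was at 9.78 TPM, while the other LMPP libraries were at 5.13 to 5.46 TPM. Pbx2 in LMPP batch 2 replicate 1 was at 10.5 TPM, while the other LMPP libraries were at 20.89 to 21.99 TPM.

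The difference between populations itself differed between batches for 4 genes in both comparisons that involve CLP, by a test of the gap. In LMPP against CLP the batch 2 minus batch 1 gap was 1.90 for Hoxa5, 1.34 for Hoxa7, 2.15 for Hoxa9 and 2.61 for Meis1 on the log2 scale. In CLP against GMP it was -2.02 for Hoxa5, -1.63 for Hoxa7, -2.68 for Hoxa9 and -2.52 for Meis1. Both comparisons use the same CLP libraries, so these are not separate observations.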

How the results depend on the processing

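Over 24 results, 615 alternatives were run: 540 kept direction and side of the threshold, 36 lost a call, 23 gained one and 16 turned sign. Hoxa5, Hoxa10 and Meis1 in LMPP against GMP kept their calls in every alternative run. Hoxa9 there lost its call under the replicate block alone (adjusted p = 0.0505), Hoxa3 in 17 of 25 alternatives and Hoxa7 in 14 of 26. Of the counts of genes higher in LMPP than in CLP (main 2), batch 2 alone gave 5, batch 1 alone gave 1, both CLP libraries of batch 2 left out 1, and single libraries left out 2 to 4 (4 without CLP batch 1 replicate 2). The count of genes higher in LMPP than in GMP (6) was 4 to 7 with single libraries left out. The count higher in CLP than in GMP (0) was 5 in batch 1 alone, 5 without both CLP libraries of batch 2, 1 without the erythroid-rich pair, and 0 to 1 with single libraries left out; the count lower (0) was 1 in batch 2 alone. The cause of these changes was not tested.

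Signs turned for Hoxa7 in LMPP against CLP within batch 1 (-0.13) and with both CLP libraries of batch 2 left out (-0.20), and for Pbx3 in LMPP against GMP under quantile normalization (-0.10). In CLP against GMP, batch 2 alone gave -0.38 for Hoxa5, -0.49 for Hoxa7, -0.47 for Hoxa9, -0.26 for Hoxa10 and -0.93 for Meis1. With single libraries left out, Meis1 ran from -0.12 (without CLP batch 1 replicate 2) to 0.76 and Pbx3 from -0.19 to 0.12. Pbx3 was 0.40 in batch 1 alone, 0.20 without both CLP libraries of batch 2 and 0.11 without the erythroid-rich pair.

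Replicate numbers recur in the 3 populations, but nothing says they mark shared animals, and residuals of same-numbered libraries correlated at -0.106 to 0.169 (1 of 10 pairs over 0.1). With a replicate block, 0 genes were called higher in LMPP than in CLP and 3 higher in LMPP than in GMP. Over all genes, LMPP against CLP called 920 higher and 356 lower, and 560 and 602 after median-ratio scaling, 635 and 595 after quantile normalization, 155 and 57 with the block, 370 and 166 with the libraries of these populations alone. LMPP against GMP called 2707 and 969, and 1717 and 1869 after median-ratio scaling; CLP against GMP called 1773 and 1267, and 1523 and 1699.

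Depth is unknown, so counting error could not be set. With 2 libraries per population and batch, within-batch values rest on few samples.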
